A study of Mus musculus with 10 samples.

Results

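The 2'-5'-oligoadenylate synthetases (OAS) are antiviral enzymes, and 7 mouse genes of the family, Oas1a, Oas1b, Oas1g, Oas2, Oas3, Oasl1 and Oasl2, were followed across 10 arrays of mouse embryonic fibroblasts. The members were chosen by gene symbol because Oas2 and Oas3 were among the largest falls when wild-type G9a was put back into G9a-deleted cells. That comparison is therefore described here with no test for these genes. Of the 7 genes, 6 had a probe set named by 1 gene, giving 6 probe sets of the 22626 that were not controls and 6 of 12393 named genes. Oas1g had none and has no value. All 6 probe sets lay above the filter on dim signals, a mean signal of 103.5 over the 10 arrays. Oas3 did so only through the groups where it was high, delta and H1093K, since its means in the other 3 groups lay under 103.5.

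OAS proteins sense double-stranded RNA, a by-product of many viral infections. On binding it, the catalytically active members join ATP into short 2'-5'-linked oligoadenylates, which act as a second messenger of the antiviral response. The genes are classic targets of interferon, which acts through receptors, JAK kinases and transcription factors of the STAT and IRF families, and fibroblasts both make and answer type I interferon. G9a, encoded by Ehmt2, is a histone methyltransferase that places methyl groups on lysine 9 of histone H3, a mark found at silent genes.

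Messenger RNA was measured on Affymetrix arrays in 5 groups of 2. In 4 groups the fibroblasts lacked their own G9a. They carried an empty vector in delta, FLAG-G9a of wild-type sequence in WT, FLAG-G9a K165A in the group named K165A, and FLAG-G9a H1093K, a catalytic mutant, in the group named H1093K. The fifth group is titled only as G9a-deleted with no vector named, and its members are called the arrays labelled deleted. The sources used here do not give the promoter of the vectors, the strain or age of the cells, or whether a group came from 1 line or from separate cultures. The p-values thus measure only how far these arrays differ, and that spread may be technical. No infection or interferon treatment is named in the labels. Values are linear signal intensities, and array medians ran from 181 to 199. With 2 arrays in a group, the number of arrays limits the precision. In a bulk sample, fewer cells expressing a gene and less RNA per cell cannot be told apart.

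Ehmt2 was read first, as a check of the labels. Its signal was 473 and 415 on the delta arrays, 676 and 620 on WT, 704 and 725 on K165A, 461 and 494 on H1093K, and 1678 and 1750 on the arrays labelled deleted. Ehmt2 was higher in WT than in delta by 0.53 ± 0.09 (log2, SE; limma adjusted p = 0.00460) and in K165A than in H1093K by 0.57 ± 0.09 (limma adjusted p = 0.00393). H1093K differed from delta by 0.10 ± 0.09 (limma adjusted p = 0.735), and their arrays overlapped. The highest Ehmt2 signals were thus on the arrays labelled deleted, which goes against that title, and every direction drawn from them below is that of the label only. A second Ehmt2 probe set was dim, from 7.13 to 247, and was not tested. Whether either probe set lies in the deleted stretch, and whether it reads the FLAG-G9a transcript, was not checked.

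Of 10 fibroblast markers all had a mean over the 10 arrays above the filter, with Col1a1 between 7011 and 9693, but Pdgfra only through the arrays labelled deleted. Pdgfra read 1628 and 1743 there and from 5.48 to 81.7 on the other 8 arrays, under the filter on each. Of 12 macrophage and leukocyte markers 5 were above it (Cd68, Csf1r, Cd14, Laptm5 and Cd74), while the defining markers Ptprc, Adgre1, Lyz2 and Itgam lay under it. The summed signal of the 12 was between 1184 and 1193 for delta, 1000 and 1007 for WT, 788 and 997 for K165A, 984 and 1087 for H1093K, and 868 and 1058 on the arrays labelled deleted. Of 6 epithelial markers 4 were above the filter, and the sum of the list was between 1223 and 1421 for delta, 898 and 1057 for H1093K, 798 and 835 for WT, 631 and 727 for K165A, and 4128 and 4203 on the arrays labelled deleted. Outside those last arrays the sum was thus higher in delta and H1093K than in WT and K165A, as Oas2 was. Of the 4 genes above the filter, Krt18 and Krt19 followed that split, and Cdh1 and Krt8 did not. Cdh1 read 135 and 77.4 on delta, 121 and 77.4 on H1093K, 175 and 168 on WT, and 130 and 126 on K165A. Krt18 read 583 and 553 on delta, 384 and 383 on H1093K, 172 and 168 on WT, 182 and 141 on K165A, and 2108 and 2035 on the arrays labelled deleted. Epcam was under the filter. Of 6 endothelial markers, Kdr alone was above it. In the other lists, Thy1 and Cd74 were higher on the delta and H1093K arrays than on all others. Thy1 read from 1676 to 2028 there and from 931 to 1308 elsewhere, and Cd74 from 233 to 326 and from 131 to 197. Outside the arrays labelled deleted, S100a4, Cd68 and Kdr were also higher in delta and H1093K than in WT and K165A. Col3a1, Pdgfrb and Vim were lower. The part of these markers in the OAS values was not tested.

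The OAS genes lie on chromosome 5 in separate groups, and 150 bases before the start site of 3 members are shown. A textbook interferon-response motif is present in only some members, and whether it goes with the size of a difference was not tested. RefSeq entries (GRCm38.p6) of promoters were found for 5 of the 7 members, not for Oas2 or Oas1b. The motif searched was GAAANNGAAA on both strands, the core of the interferon-stimulated response element, and capitals mark it. Within 250 bases before to 50 after the start, 3.44% of 32851 promoters held a match, as did 3 of the 5 members. In Oas3 (chr5:120777660-120777809, minus strand) it began 75 bases before the start, and in Oas1a (chr5:120907526-120907675, minus strand) a pair of overlapping matches began 20 and 14 bases before it. Oas1g held matches too, of the same letters as those of Oas1a, but has no signal value. Oasl2 (chr5:114896784-114896933, plus strand) and Oasl1 held none. In K165A against H1093K, Oas3 and Oas1a, with the motif, were at -2.53 and -0.43 (log2). Oasl2 and Oasl1, without it, were at -0.50 and -0.23. A match is a description of letters, and no match says only that these letters are not in this window.
Oas3: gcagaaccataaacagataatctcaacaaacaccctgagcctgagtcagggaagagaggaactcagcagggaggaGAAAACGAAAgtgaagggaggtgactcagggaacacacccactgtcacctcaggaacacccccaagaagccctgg
Oas1a: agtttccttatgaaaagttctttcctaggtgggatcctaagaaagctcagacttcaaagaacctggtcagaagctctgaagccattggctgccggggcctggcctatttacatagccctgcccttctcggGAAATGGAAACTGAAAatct
Oasl2: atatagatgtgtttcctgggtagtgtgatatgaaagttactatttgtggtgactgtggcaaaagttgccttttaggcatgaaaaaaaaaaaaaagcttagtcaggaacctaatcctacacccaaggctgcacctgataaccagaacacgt

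Oas2 and Oas3, the mid-sized and the largest synthetase, had the widest range in the family on the log2 scale. Oas2 read 1350.05 and 1354 on the delta arrays, 181 and 133 on WT, 152 and 118 on K165A, 1623 and 1592 on H1093K, and 87.2 and 101 on the arrays labelled deleted. The delta and H1093K arrays were all high and the other 6 all low, with no overlap. Group means were 1352 ± 3.14 for delta, 157 ± 33.8 for WT, 135 ± 23.6 for K165A, 1608 ± 22.1 for H1093K, and 94.2 ± 9.99 on the arrays labelled deleted (SD, n = 2 each). In the fall it was chosen for, WT against delta, Oas2 was at -3.00 ± 0.16 (log2, SE), or 7.99-fold lower.

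Oas3, whose product binds long double-stranded RNA, read 385 and 659 on delta, 79.7 and 47.1 on WT, 47.6 and 147 on K165A, 497 and 657 on H1093K, and 75.5 and 70.5 on the arrays labelled deleted. Its arrays fell into the same high and low sets as those of Oas2, again without overlap, but replicates of delta and of K165A lay further apart. WT minus delta was -2.74 ± 0.41 (log2, SE), or 6.70-fold lower.

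The Oas1 genes encode the small synthetases, and near-identical copies sit side by side, so how far the Oas1a and Oas1b probe sets also read Oas1g or other copies is uncertain. Oas1a read 2202 and 2214 on delta, 1816 and 1658 on WT, 1791 and 1640 on K165A, 2343 and 2292 on H1093K, and 1164 and 1198 on the arrays labelled deleted. The same 4 arrays were highest, but the gap was narrow: WT minus delta was -0.34 ± 0.08 (log2, SE), a 1.27-fold difference. Oas1b, the flavivirus-resistance gene of mice, read 303 and 243 on delta, 263 and 209 on WT, 309 and 217 on K165A, 182 and 310.2 on H1093K, and 149 and 131 on the arrays labelled deleted. Delta, WT, K165A and H1093K overlapped for Oas1b, WT minus delta being -0.20 ± 0.25, and only the arrays labelled deleted lay apart, below them. Of the other Oas1 genes, Oas1c, Oas1e and Oas1h had mean signals of 59.4, 58.0 and 12.3, under the filter, and Oas1d and Oas1f had no probe set of their own.

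The OAS-like genes Oasl1 and Oasl2 encode proteins with ubiquitin-like domains, and Oasl1 is known as a brake on Irf7 translation. Oasl2 read 1815 and 2071 on delta, 1426 and 1479 on WT, 1576 and 1663 on K165A, 2305 and 2295 on H1093K, and 1458 and 1468 on the arrays labelled deleted. Its 4 highest arrays were those of delta and H1093K, and WT minus delta was -0.41 ± 0.08 (log2, SE), a 1.33-fold difference. Oasl1 read 166 and 138 on delta, 179 and 119 on WT, 143 and 145 on K165A, 169 and 174 on H1093K, and 112 and 120.4 on the arrays labelled deleted. Its WT and delta arrays overlapped, at -0.05 ± 0.19.

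**Figure D1:**
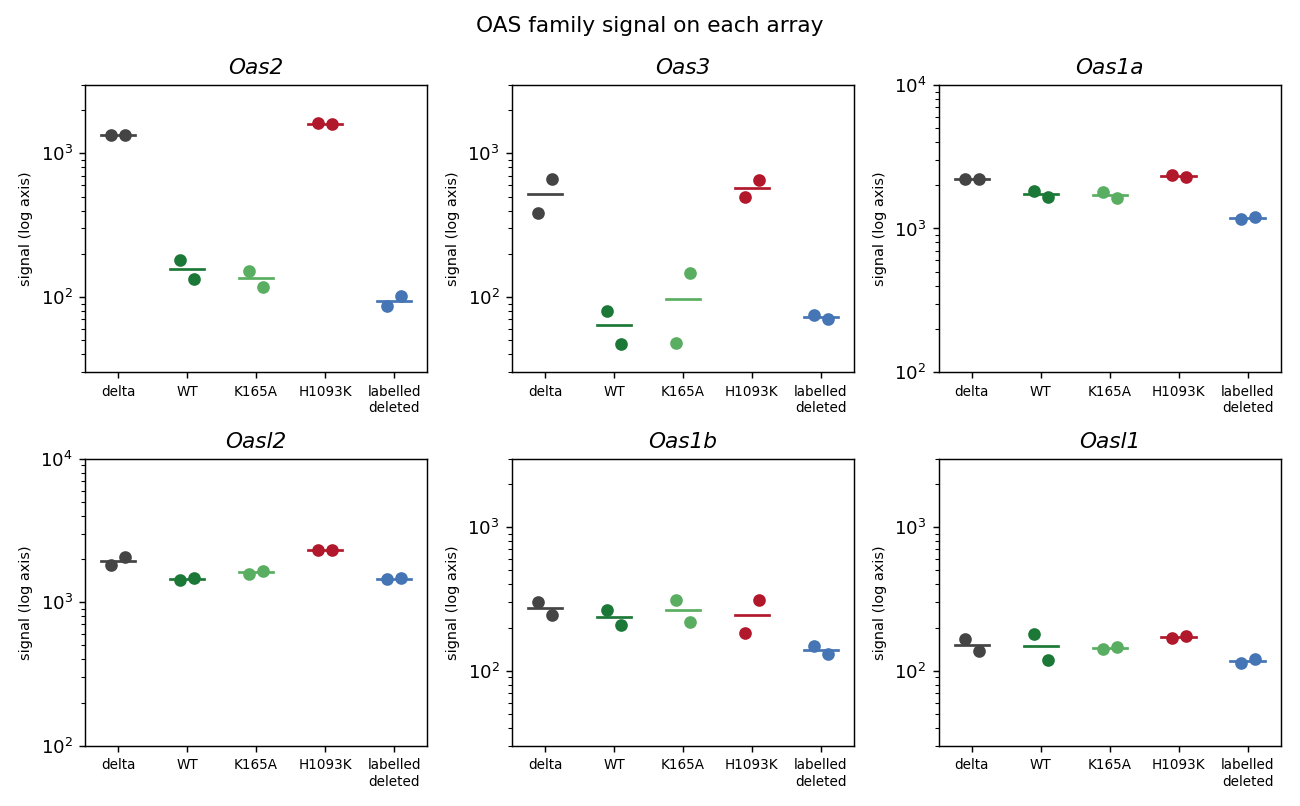
Signal of each OAS gene (log axis, linear signal units) on the 10 arrays, as points by group with a line at the group mean; panels differ in axis range. For Oas2 the delta and H1093K arrays sit between 1350.05 and 1623 and the other 6 between 87.2 and 181, while for Oas1b the groups overlap except the arrays labelled deleted.

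Ordered by mean, Oas2 and Oas1a both ran H1093K, delta, WT, K165A, then the arrays labelled deleted, and only the neighbours WT and K165A overlapped. For Oas3, H1093K and delta overlapped at the top, and K165A, the arrays labelled deleted and WT overlapped at the bottom. For Oasl2 the order was H1093K, delta, K165A, then the arrays labelled deleted and WT, which overlapped. For Oasl1, H1093K was above delta, delta, WT and K165A overlapped, and the arrays labelled deleted came last. Comparisons that share the delta or WT arrays with the choice of genes are described only. H1093K minus delta was 0.25 ± 0.16 for Oas2, 0.18 ± 0.41 for Oas3, 0.07 ± 0.08 for Oas1a, 0.24 ± 0.08 for Oasl2, -0.17 ± 0.25 for Oas1b and 0.16 ± 0.19 for Oasl1 (log2, SE). K165A minus WT lay between -0.19 for Oas2 and 0.39 for Oas3, and the 95% interval of each of the 6 differences held 0, the widest being -0.53 to 1.31 for Oas3.

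The K165A and H1093K arrays played no role in choosing the genes, and comparing them sets a G9a form without the catalytic substitution against one with it. In K165A, 4 of the 6 measured OAS genes were lower than in H1093K and 0 were higher (limma, adjusted p under 0.05 over 13576 probe sets). At limma unadjusted p under 0.05 also 4 were lower and 0 higher, with no share of all probe sets taken. Leaving out Oas3, which passed the filter only through its high groups, 3 of 5 were lower. Over all probe sets tested, 4.04% were lower and 3.66% higher at adjusted p under 0.05. With the replicate number as a block the same 4 OAS genes passed, but 1898 of the 13576 probe sets were called, against 1046 without it. The median difference was -0.47 over the 6 genes and 0.00 over all probe sets (log2). Only the K165A group carried the K165A substitution, and Ehmt2 was higher in that group as well. The catalytic substitution, the K165A substitution and the level of Ehmt2 thus cannot be told apart here.

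Oas2 was 10.8-fold lower in K165A than in H1093K, at -3.44 ± 0.16 (log2, SE; 95% interval -3.79 to -3.09; limma adjusted p = 3.05e-06), the rank 5 fall of 13576. Oas3 was 5.76-fold lower, at -2.53 ± 0.41 (-3.44 to -1.61; limma adjusted p = 0.00409), rank 18, though its K165A mean of 97.5 lay under the filter, so that this fold rests on a dim signal. The other members differed far less. Oasl2 was 1.42-fold lower, at -0.50 ± 0.08 (limma adjusted p = 0.00318), rank 546. Oas1a was 1.35-fold lower, at -0.43 ± 0.08 (limma adjusted p = 0.00622), rank 727. The Oas1a call was lost without H1093K replicate 1, at -0.42 (limma adjusted p = 0.0525). Oasl1 did not pass, at -0.23 with an interval of -0.66 to 0.20 (limma adjusted p = 0.576), although its K165A and H1093K arrays did not overlap. Oas1b did not pass either, at 0.11 with an interval of -0.45 to 0.67 (limma adjusted p = 0.865). With the arrays labelled deleted left out of the fit, the same 4 genes passed, with limma adjusted p from 5.67e-06 for Oas2 to 0.0137 for Oas1a.

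Against H1093K, the arrays labelled deleted had 4 of the 6 OAS genes lower and 0 higher (limma adjusted p under 0.05). At that threshold 17.3% of all probe sets were lower. At limma unadjusted p under 0.05, 6 OAS genes were lower and 0 higher, with no such share taken. Oas3 is among the 4 and passed the filter only through delta and H1093K, so the filter favoured its fall against H1093K. The means of Oas2 and Oas3 on the arrays labelled deleted, 94.2 and 73.0, lay under the filter. Oas2 was at -3.88 ± 0.16 (log2, SE; limma adjusted p = 1.10e-07), Oas3 at -2.72 ± 0.41 (6.67e-04), Oas1a at -0.96 ± 0.08 (8.06e-06) and Oasl2 at -0.65 ± 0.08 (1.60e-04). Oas1b, at -0.71 ± 0.25, and Oasl1, at -0.50 ± 0.19, had limma adjusted p of 0.0526 and 0.0682, and with the replicate number as a block both passed (0.0317 and 0.0394).

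The arrays labelled deleted were last compared with K165A. Of the 6 OAS genes 2 were lower than in K165A and 0 higher (limma adjusted p under 0.05). At that threshold 16.8% of all probe sets were lower and 15.6% higher. At limma unadjusted p under 0.05, 3 OAS genes were lower and 0 higher, with no such share taken. Oas1a was at -0.53 ± 0.08 (log2, SE; limma adjusted p = 5.01e-04). Oas1b was at -0.82 ± 0.25 (limma adjusted p = 0.0310), a call lost without K165A replicate 1 (0.186), without either array labelled deleted (0.0740 and 0.133) and with no filter (0.0535). Oas2 was at -0.45 ± 0.16 (limma adjusted p = 0.0535; 0.0262 with the replicate number as a block). Oas3, at -0.20 with an interval of -1.11 to 0.72, Oasl1, at -0.27, and Oasl2, at -0.14, had limma adjusted p of 0.755, 0.310 and 0.192.

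**Figure D2:**
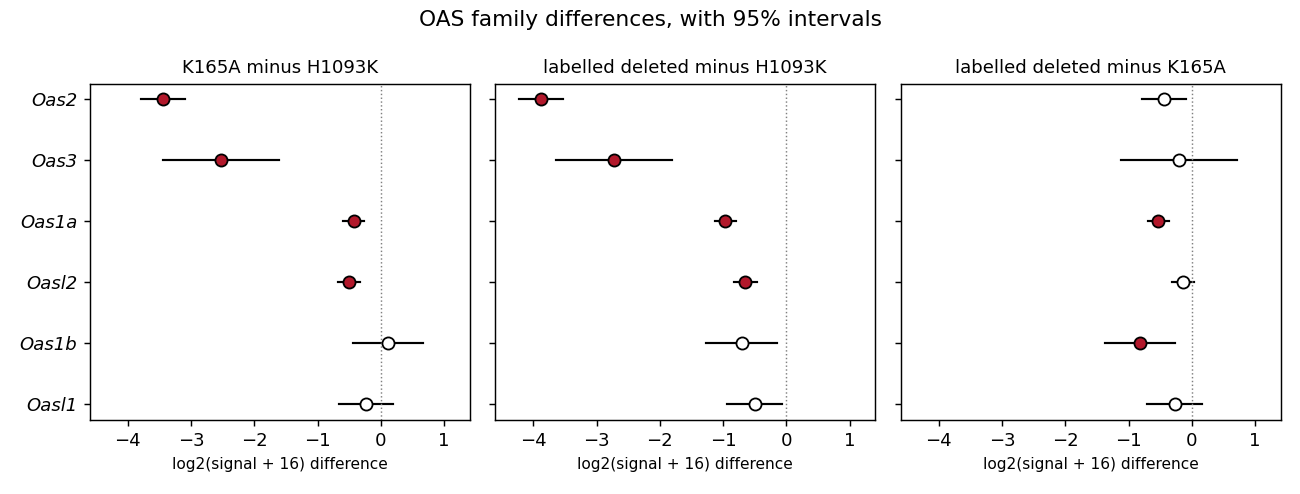
Differences between groups for the 6 OAS genes on the log2(signal + 16) scale in the 3 comparisons that did not enter the choice of genes; points are differences, bars 95% intervals, and filled points have a limma adjusted p under 0.05. Oas2 is at -3.44 and -3.88 against H1093K but at -0.45 between the arrays labelled deleted and K165A.

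Counted by array, both H1093K arrays were above all K165A arrays and all arrays labelled deleted for 5 of the 6 OAS genes, all but Oas1b, against 13.4% of all probe sets. Oas3 is among the 5 and passed the filter only through delta and H1093K, so the filter favoured its place in that count. All delta and H1093K arrays were above all the others for Oas2, Oas3, Oas1a and Oasl2, that is 4 of 6, against 6.70% of all probe sets. The latter count uses the WT and delta arrays, on which the genes were chosen, and nothing is read from it.

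Genes around the OAS enzymes in the interferon pathway were taken from a list of 61 symbols, older names included, of which 49 had a probe set and 35 passed the filter. They did not move as a block with Oas2 and Oas3. In WT against delta 5 were higher, 2 lower and 28 did not pass (limma), where 5.58% of all probe sets were higher and 6.68% lower. In K165A against H1093K 2 were higher, 6 lower and 27 did not pass, at the 3.66% and 4.04% background given above. Zbp1 is among the 6 and passed the filter only through H1093K and, narrowly, delta, so the filter favoured its place in that count. The list's median difference was -0.07 in WT against delta and 0.00 in K165A against H1093K, with all probe sets at 0.00 in both. With the replicate number as a block, 6 were higher and 4 lower in WT against delta, with Ifngr1, Tlr3 and Mx2 added. In K165A against H1093K the blocked counts were 5 higher and 6 lower, with Irf1, Ifit1 and Ifit3 added. There the block also raised the number of all probe sets called, from 1046 to 1898 of 13576. The blocked share in WT against delta is not given here, and nothing is read from the genes added.

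On the effector side, Pde12, which degrades 2'-5'-oligoadenylates, and Abce1, an ATP-binding protein of ribosome recycling, did not pass in either comparison. All 7 interferon ligands on the list, Ifnb1 with a mean signal of 50.3 among them, were under the filter and not tested. Of 4 receptor chains 0 passed in WT against delta (limma; 1 at unadjusted p under 0.05), and Ifngr1, a chain of the interferon gamma receptor, was lower in K165A than in H1093K by -0.62 ± 0.09 (log2, SE; limma adjusted p = 0.00189). Jak1, the kinase shared by both interferon receptors, was higher in WT than in delta by 0.39 ± 0.08 (limma adjusted p = 0.0106) and in K165A than in H1093K by 0.42 ± 0.08 (0.00981). The Jak1 call was lost in WT against delta without delta replicate 1 or either WT array (up to 0.0759), and in K165A against H1093K without K165A replicate 2 or H1093K replicate 1 (up to 0.0860).

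The transcription factors that drive OAS genes did not pass in either comparison: 0 of 7 tested were called in each (limma; at unadjusted p under 0.05, 1 in WT against delta and 0 in K165A against H1093K), Irf1 passing in the latter with the replicate block (0.0351). Stat2 was at -0.09 ± 0.10 and 0.05 ± 0.10, Irf9 at -0.01 ± 0.07 and 0.03 ± 0.07, and Irf7, the amplifier of interferon production, at -0.26 ± 0.11 and -0.22 ± 0.11, in WT against delta and K165A against H1093K.

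Among 9 sensors and adaptors tested, Ifih1, the MDA5 sensor of long double-stranded RNA, read 1751 and 1752 on delta, 1152 and 1097 on WT, 1392 and 1194 on K165A, and 1778 and 1736 on H1093K. It was lower in WT than in delta by -0.63 ± 0.09 (log2, SE; limma adjusted p = 0.00140) and in K165A than in H1093K by -0.44 ± 0.09 (0.0132). Tlr3, the endosomal double-stranded RNA receptor, was lower in K165A than in H1093K by -0.99 ± 0.20 (limma adjusted p = 0.0148), with -0.63 ± 0.20 in WT against delta (0.0724; 0.0314 with the replicate block). Zbp1, a sensor of Z-form nucleic acids, was lower in K165A than in H1093K by -1.41 ± 0.29 (limma adjusted p = 0.0151). Its mean was 238 in H1093K and 80.5 in K165A, and it passed the filter only through H1093K and, narrowly, delta (108). The K165A against H1093K calls of Ifih1, Tlr3 and Zbp1 were each lost without at least 1 of the arrays compared, with limma adjusted p of up to 0.0853, 0.0903 and 0.0943. Those of Ifih1 were lost without K165A replicate 2 or either H1093K array, those of Tlr3 without K165A replicate 1 or either H1093K array, and that of Zbp1 without K165A replicate 2.

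Of the other interferon-induced genes, Rsad2 (viperin) followed the OAS direction and the Ifit genes did not. Rsad2 read 1216 and 1159 on delta, 557 and 676 on WT, 726 and 667 on K165A, 1425 and 1263 on H1093K, and 974 and 993 on the arrays labelled deleted. It was lower in WT than in delta and in K165A than in H1093K, by -0.93 ± 0.10 in each (log2, SE; limma adjusted p = 3.24e-04 and 3.77e-04), and kept both calls under each alternative run. Ifit3, a partner of the viral RNA binding protein Ifit1, read 2118 and 2115 on delta, 3370.0 and 3201 on WT, 3713 and 3438 on K165A, 2876 and 3100.4 on H1093K, and 744 and 736 on the arrays labelled deleted. Ifit3 and Ifit2 were higher in WT than in delta, by 0.63 ± 0.07 and 0.50 ± 0.08 (limma adjusted p = 4.87e-04 and 0.00424), the direction opposite to that of Oas2. Ifit1 was higher by 0.36 ± 0.10 (limma adjusted p = 0.0440), a call lost without any 1 array other than delta replicate 2 (up to 0.248), with no filter (0.0718), with median centring (0.0838), with quantile normalization (0.0628), without both arrays labelled deleted (0.0675) and without an intensity trend (0.0750).

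The brakes of the pathway went separate ways. Socs3, a suppressor of cytokine signalling, was higher in WT than in delta by 0.94 ± 0.21 (log2, SE; limma adjusted p = 0.0187) and in K165A than in H1093K by 0.90 ± 0.21 (0.0306), the first lost without delta replicate 2 or either WT array (up to 0.130) and the second without K165A replicate 1 or H1093K replicate 2 (up to 0.199), with no filter (0.0572) and without an intensity trend (0.0625). Usp18, which removes ISG15 from proteins and dampens interferon receptor signalling, was lower in K165A than in H1093K by -0.32 ± 0.08 (limma adjusted p = 0.0479), lost with no filter (0.0777), with median centring (0.0722), without an intensity trend (0.0896), without both arrays labelled deleted (0.0789) and without any 1 of the 10 arrays (up to 0.255). In WT against delta it was at -0.07 ± 0.08.

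**Figure D3:**
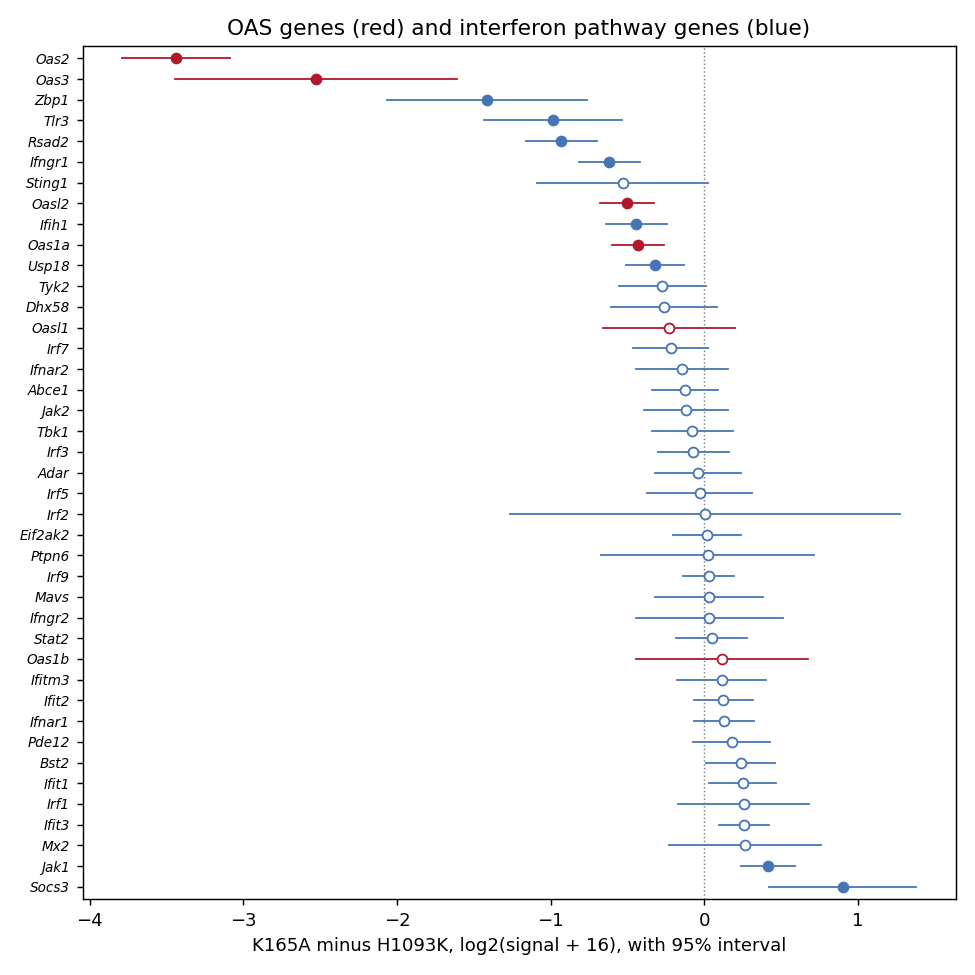
K165A minus H1093K on the log2(signal + 16) scale for 6 OAS genes (red) and 35 interferon pathway genes (blue), sorted by the difference; bars are 95% intervals and filled points have a limma adjusted p under 0.05. Oas2 at -3.44 and Oas3 at -2.53 lie furthest left, followed by Zbp1 at -1.41, while Irf9 and Stat2 lie near 0.

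At limma unadjusted p under 0.05, H1093K against delta had 5 pathway genes higher and 0 lower, with no share of all probe sets taken. At limma adjusted p under 0.05, 2 were higher, Ifit2 and Ifit3 (both 0.49), and 0 lower. Over all probe sets, 0.471% were higher and 0.398% lower at that adjusted threshold. Both calls were lost without any 1 of the 4 arrays compared (limma adjusted p up to 0.178 and 0.144) and without an intensity trend, and that of Ifit2 also with no filter, with median centring and without any 1 of the WT and K165A arrays (up to 0.0596). Zbp1 was at 1.01 ± 0.29 and passed with the replicate block. On the arrays labelled deleted 16 of the 35 were lower than in delta and 3 higher, where 17.6% and 16.2% of all probe sets were. With the replicate number as a block 17 were lower and 4 higher, Rsad2 (0.0451) and Jak2 (0.0247) being added. The blocked share of all probe sets is not given here. Among the 16, Ifit3 was at -1.50 ± 0.07, Stat2 at -0.65 ± 0.10 and Irf7 at -0.59 ± 0.11 (log2, SE; limma adjusted p = 3.42e-07, 0.00104 and 0.00262). For Ifit3, Stat2 and Irf7 the arrays labelled deleted lay below all 8 others, including WT and K165A, where Oas2 was also low. Also among the 16, the calls of Abce1, Sting1, Tbk1 and Mx2 were each lost in at least 1 alternative. The 3 higher genes were Irf3 and the receptor chains Ifnar1 and Ifnar2, each lost in at least 1 alternative, and with median centring 1 was higher. Without deleted replicate 2, 0 were higher, and without deleted replicate 1 or either delta array 1 was.

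In RefSeq's gene order (GRCm38.p6), Oas2 and Oas3 are neighbours at one end of the cluster that also holds the Oas1 genes, and Oasl1 and Oasl2 form a separate pair. Of the 20 genes flanking the Oas1 to Oas3 cluster, 10 on each side, 9 were tested. In WT against delta 0 of the 9 passed (limma; 0 at unadjusted p under 0.05), with differences from -0.44 for Rita1 to 0.19. In K165A against H1093K Ddx54, an RNA helicase, was called, at -0.36 (limma adjusted p = 0.0431). The nearest genes beyond Oas2, Dtx1 and Rasal1, and Rph3a at the other end, were too dim to test. Within the cluster, Oas1b and Oas1a were far less different than Oas2 and Oas3. Around the Oasl pair 13 of 20 flanking genes were tested, and Pop5 was called in WT against delta, at -0.48 (limma adjusted p = 0.0129), with Mlec added under the replicate block. In K165A against H1093K 0 of the 13 passed (limma; 3 at unadjusted p under 0.05), and Acads passed with the replicate block.

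**Figure D4:**
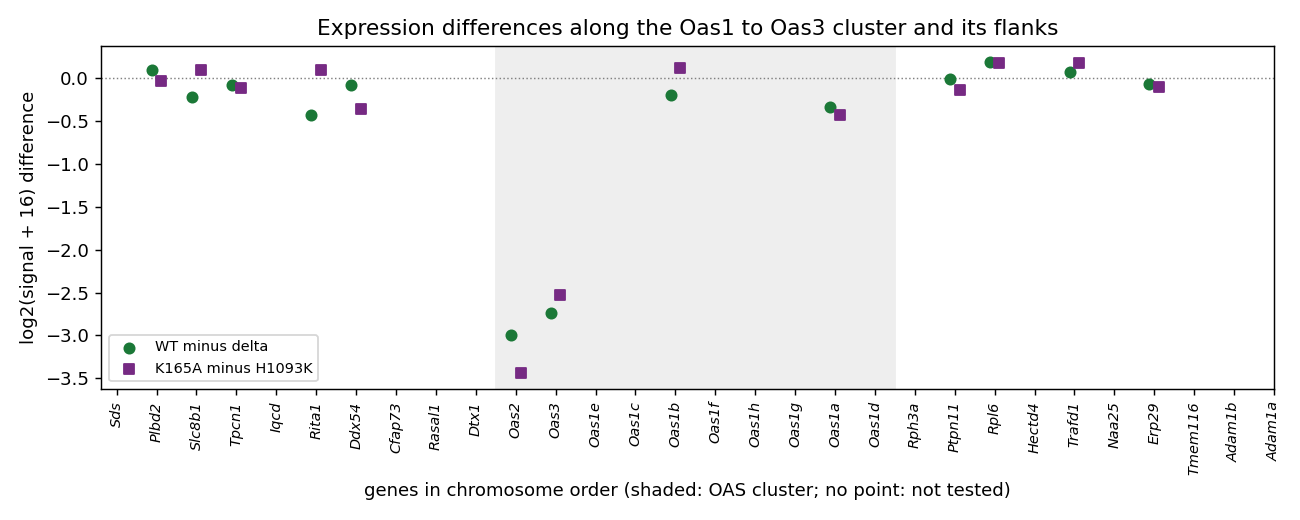
Differences on the log2(signal + 16) scale for genes in RefSeq order along the Oas1 to Oas3 cluster (shaded) and 10 genes on each side; circles are WT minus delta, squares K165A minus H1093K, and genes with no point were not tested. Oas2 and Oas3 lie between -2.53 and -3.44, and the 9 flanking genes tested lie between -0.44 and 0.19.

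The likeness of each gene to Oas2 was described by Pearson's r of log2 values over the 10 arrays, among 7755 genes. The arrays fall into a high and a low set for Oas2, so r mainly reads that split, and no p is given. Oas3 had r = 0.94, with 56 genes more alike, Oasl2 0.92 (111 genes) and Oas1a 0.88 (198 genes). Oasl1 had 0.64 (1031 genes) and Oas1b 0.46 (1833 genes). The 10 genes most alike were Ddx60, Ankrd1, Kng1, Pkp1, Ppbp, Plk2, Lgals9, Dbi, Timp1 and Cxcl15, with r from 0.99 to 0.97. On the WT, K165A and labelled deleted arrays Kng1 read only from 19.3 to 28.9 and Pkp1 from 12.6 to 21.2. Both passed the filter only through delta and H1093K, so the filter favoured their place among the 10. Ddx60, an interferon-induced helicase, read 432 and 453 on delta, 214 and 222 on WT, 231 and 195 on K165A, 491 and 523 on H1093K, and 210.4 and 201 on the arrays labelled deleted. Ppbp, a platelet chemokine, was at -3.38 in WT minus delta and -3.25 in K165A minus H1093K, differences of the size of those of Oas2, whereas Dbi, with r = 0.98, was at -0.20 and -0.30.

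**Figure D5:**
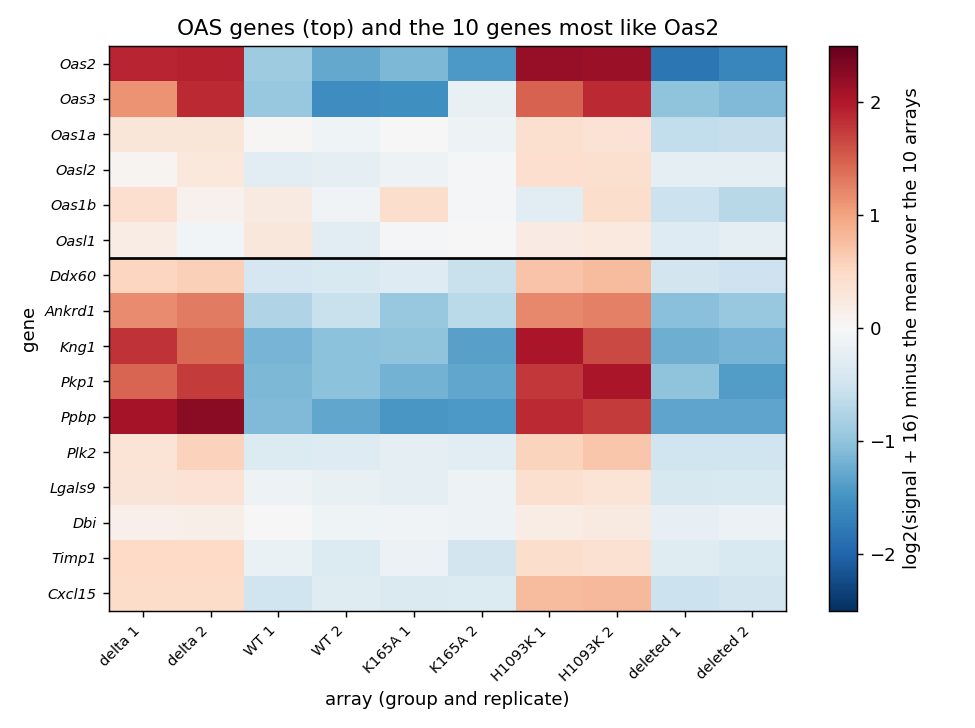
Heat map of log2(signal + 16) minus each gene's mean over the 10 arrays (colour scale) for the 6 OAS genes (above the line) and the 10 genes with the highest r with Oas2 (below it); columns are arrays by group and replicate. The delta and H1093K columns are high and the WT, K165A and labelled deleted columns low for Oas2, Oas3 and the 10 genes, and Oas1b and Oasl1 do not follow that split.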

How the data were processed

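RNA of mouse embryonic fibroblasts was measured on 10 arrays in 5 groups of 2. The authors deposited signal intensities on a linear scale, made with GCOS 1.4 per the submitters' processing notes; the background and scaling options are not given in the sources used here. The trimmed mean, leaving out 2% at each end, was 500.1 on every array, so no further scaling was applied.

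Of 22690 probe sets, 64 controls were left out. Of the other 22626, 20380 were named by 1 gene of the platform annotation, 691 by several and 1555 by none, and symbols were updated through RefSeq (GRCm38.p6). Signals were analysed as log2(signal + 16), which understates the change of dim probe sets. Probe sets under the 40th percentile of mean signal were left out, which kept 13576 (7761 genes). A gene with several probe sets was read on the one with the highest mean signal. In R 4.3.3, a single limma 3.58.1 model of group means took in the 10 arrays (lmFit, then eBayes with trend; 5 residual degrees of freedom, prior 4.69), with Benjamini-Hochberg adjustment over the 13576 and a threshold of 0.05. The fit was tested on simulated data.

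OAS genes were tested only between groups other than WT and delta. The share of all probe sets called was not taken at unadjusted p. All members, Ehmt2, the pathway list and the 10 genes with the highest r with Oas2 could be named. The members, lists and tests were chosen with earlier results of these data known; the flanking genes, the motif and the counts of arrays above others were added after seeing the data, and their genes were named after their values were seen. Arrays with the same replicate number in their titles deviated together in all 10 pairs of groups (r from 0.23 to 0.51), so the number pairs the samples, and blocked values are printed where they change a call. Alternatives were pseudocounts of 1 and 64, no filter, the 60th percentile, median centring, quantile normalization, the block, no trend, and leaving out arrays.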

Additional observations from a re-analysis of the deposited data

How the results depend on the processing

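The limits are few arrays and a title that the Ehmt2 signal goes against. No called difference reversed under the alternatives run. Differences that did not pass reversed when 1 array was left out: Oas1b in K165A against H1093K went from 0.11 to -0.13 (without K165A replicate 1) and -0.25 (without H1093K replicate 1), within a range of -0.25 to 0.47, and Oas3 in the arrays labelled deleted against K165A from -0.20 to 0.48 (without K165A replicate 2), within a range of -0.88 to 0.48. The sign also changed, by less than the spread between replicates, in 8 values of described differences (Oas3, Oas1b and Oasl1) with 1 array left out. WT minus delta was -2.69 for Oas2 and -2.17 for Oas3 with a pseudocount of 64, against -3.00 and -2.74. Oas3, Oas1b and Oasl1 lay under the 60th percentile and have no value there. In K165A against H1093K 1046 probe sets were called, 1898 with the replicate block and from 575 (without H1093K replicate 1) to 995 (without delta replicate 1) when 1 array was left out. In the arrays labelled deleted against K165A 2 OAS probe sets were called, 1 with no filter and from 1 to 3 when 1 array was left out. Of 823 other recomputed values, 748 stayed on the same side of the threshold or, where not tested, within that spread or 1.5 times the count, 47 became weaker, 24 stronger, 1 moved and 3 reversed, as given above. With median centring or quantile normalization all 6 OAS genes passed in the arrays labelled deleted against H1093K, and Oas2 passed against K165A (adjusted p = 0.0359 and 0.0313). Beyond those named in the text, the replicate block changed no OAS call in the tested comparisons. No scaling moved the median of all probe sets by 0.1 or more.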
